A study of Homo sapiens with 12 samples.

Results

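CPI203 is a small-molecule inhibitor of the BET bromodomain proteins. Its effect on transcripts was measured on the 8 oligonucleotide arrays labelled with the multiple myeloma cell lines JJN3 and RPMI-8226, out of 12 arrays and 3 lines in the series, the third line being ARP1. Each line gave 1 array of untreated control cells, 1 of cells given CPI203 at 0.01 µM, 1 of cells given 5 µM lenalidomide together with 0.05 µM dexamethasone (LenDex), and 1 of cells given all 3 drugs (Combo), with 6 h of treatment. The 4 arrays with CPI203 (CPI203 and Combo) were set against the 4 without it (control and LenDex) in 4 pairs, each pair sharing its line and its LenDex status. The deposited values are log2 levels of probe sets, and each of 18239 genes was represented by 1 probe set. The 14044 genes that reached 5 on the log2 scale on 3 or more of the 8 arrays were tested. Lenalidomide and dexamethasone were always given together, a line is a single cancer cell line, and nothing in the labels says that the pairs came from separate cultures. The p-values therefore rest on the spread between these 4 pairs, which may be technical, and on variances partly shared across genes by the fit.

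BET proteins bind acetylated lysines on histone tails through paired bromodomains and help recruit the elongation kinase P-TEFb to promoters and enhancers. Inhibitors occupy the bromodomains and displace the proteins from chromatin. Myeloma is a cancer of plasma cells whose growth is known to lean on MYC, on IRF4 and on the Ikaros factors IKZF1 and IKZF3, which lenalidomide marks for destruction through the ubiquitin ligase receptor cereblon.

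The cell identity markers on these arrays were mixed, and several went against the label of a plasma cell line. MS4A1 (CD20), a surface protein of B cells that plasma cells lose, lay between 11.48 and 12.06 on the 8 arrays and between 4.59 and 5.33 on the 4 ARP1 arrays. SDC1 (CD138), the defining surface protein of plasma cells, ran the other way, between 4.96 and 5.79 on the 8 arrays and between 11.78 and 12.26 on the ARP1 arrays. The plasma cell marker IRF4 was at 12.38 to 13.31 on the 8 arrays, against 11.83 to 12.26 in ARP1. XBP1 at 10.27 to 10.66 and MZB1 at 10.13 to 10.61 were high too, though below ARP1. Of the B cell markers, CD72 lay between 4.48 and 4.79, and PAX5 at 6.87 to 7.27 was no higher than in ARP1. For 7 B cell markers measured, the summed log2 level ran from 60.5 to 63.2 with CPI203 and from 62.1 to 64.1 without it. For 8 plasma cell markers it ran from 62 to 66.5 and from 66.2 to 72.1. On the ARP1 arrays these sums were 38.6 to 39.3 and 92.2 to 95.2. With CPI203, 1 of 6 B cell markers tested and 5 of the 8 plasma cell markers were called, against 18.7% of all genes tested. CD79B fell, and of the plasma cell markers TNFRSF17, SLAMF7, XBP1 and PRDM1 fell while IRF4 rose. Without the JJN3 pair lacking LenDex, 1 fall and 1 rise were left on a longer list of 16 plasma cell genes. The highest plasma cell sum among the 8 arrays, 72.1, was that of the JJN3 control array, which stood apart from the other JJN3 arrays in immunoglobulin transcripts. IGHA1 was at 9.84 there and at 5.72, 5.52 and 6.24 on the JJN3 arrays with CPI203, LenDex and Combo, and IGKC was at 9.32 against 5.35, 5.11 and 5.55. The part these differences play in the results was not tested, so values without the pair that holds this array are given where they matter. Line names below are the labels of the arrays. Across genes, JJN3 arrays correlated with RPMI-8226 arrays at Pearson r from 0.96 to 0.98, against 0.978 to 0.99 within JJN3 and 0.866 to 0.887 between ARP1 and the other 8 arrays.

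With CPI203, 2627 of 14044 genes passed an adjusted p of 0.05 in the paired limma fit, or 18.7% of those tested. Of these, 1352 rose (9.63%) and 1275 fell (9.08%), and these shares are the background for the counts of each gene group below. The balance between rises and falls turned under other scalings, with 1204 rises and 1454 falls after cyclic loess and 1248 and 1412 after quantile normalization. The same direction was seen in 4 of 4 pairs for 1349 of the rises and 1272 of the falls. A change of at least 2-fold was seen in 127 rises and 107 falls. Leaving out 1 pair at a time lowered the number of calls to between 1313 (without the RPMI-8226 pair lacking LenDex) and 1596 (without the RPMI-8226 pair with LenDex), with 1498 without the JJN3 pair that holds the control array and 1562 without the other JJN3 pair. For gene groups, the counts with 1 pair left out are given below in a fixed order: JJN3 without LenDex, JJN3 with LenDex, RPMI-8226 without LenDex and RPMI-8226 with LenDex. Of 111 named genes with a call, 80 kept it without any 1 pair. The 11 that lost it in each of the 4 cases were BCL10, CCNE1, CDC20, CENPE, CIITA, NELFA, NFKBIE, ODC1, PPAT, SRM and XBP1. The 20 that lost it in 1 to 3 cases were AEN, AFF4, BUB1, CCL5, CD81, CRBN, CTPS1, IGHM, IGLL5, IRF8, MTHFD1, MX1, MXD3, MYC, RRM2, SAT1, SLAMF7, SLC7A11, SRXN1 and ZFP36L1. After averaging both lines within each treatment, 2079 genes passed. RMA brings arrays to a common distribution, so each change is measured against the other transcripts, and in RNA from whole cultures a change per cell cannot be told apart from a change in which cells were present.

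The 12 largest rises were led by SERTAD1, a transcriptional coregulator that binds the cyclin-dependent kinase CDK4. In every pair of values below, the array without LenDex comes first and the array with LenDex second. SERTAD1 was at 7.14 and 7.68 on the JJN3 arrays without CPI203 and at 9.87 and 9.85 on those with it, and at 5.80 and 6.09 against 9.30 and 9.22 on the RPMI-8226 arrays. All 4 arrays with CPI203 lay above all 4 without it. SERTAD1 rose by 2.88 ± 0.20 log2 units (SE, 4 pairs), a 7.36-fold rise (adjusted p = 0.00157).

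JUND, a member of the AP-1 family of transcription factors, rose 4.87-fold. Its JJN3 levels were 7.76 and 8.37 without CPI203 and 10.12 and 10.07 with it, and its RPMI-8226 levels were 7.32 and 7.35 against 9.93 and 9.82. The 2 sets of arrays did not overlap, and the change was 2.28 ± 0.15 (SE, adjusted p = 0.00154). DHRS2, a short-chain dehydrogenase, rose from 5.79 and 5.95 to 8.28 and 8.04 in JJN3 and from 5.42 and 5.04 to 7.71 and 6.99 in RPMI-8226, again without overlap (2.20 ± 0.10, adjusted p = 0.00132). IRF7, the interferon regulatory factor that drives type I interferon genes, rose by 1.97 ± 0.13 (adjusted p = 0.00148), from 6.66 and 6.46 to 8.93 and 8.68 in JJN3 and from 7.16 and 7.13 to 8.84 and 8.82 in RPMI-8226. The other genes among the 12 were the histone genes H2AC6, H2AC25, H3C4, H2BC21 and H2AC8, the metallothionein gene MT1X, the nuclear protein gene CSRNP2 and SERPINI1, which encodes the protease inhibitor neuroserpin, with changes between 1.87 and 2.36.

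**Figure D1:**
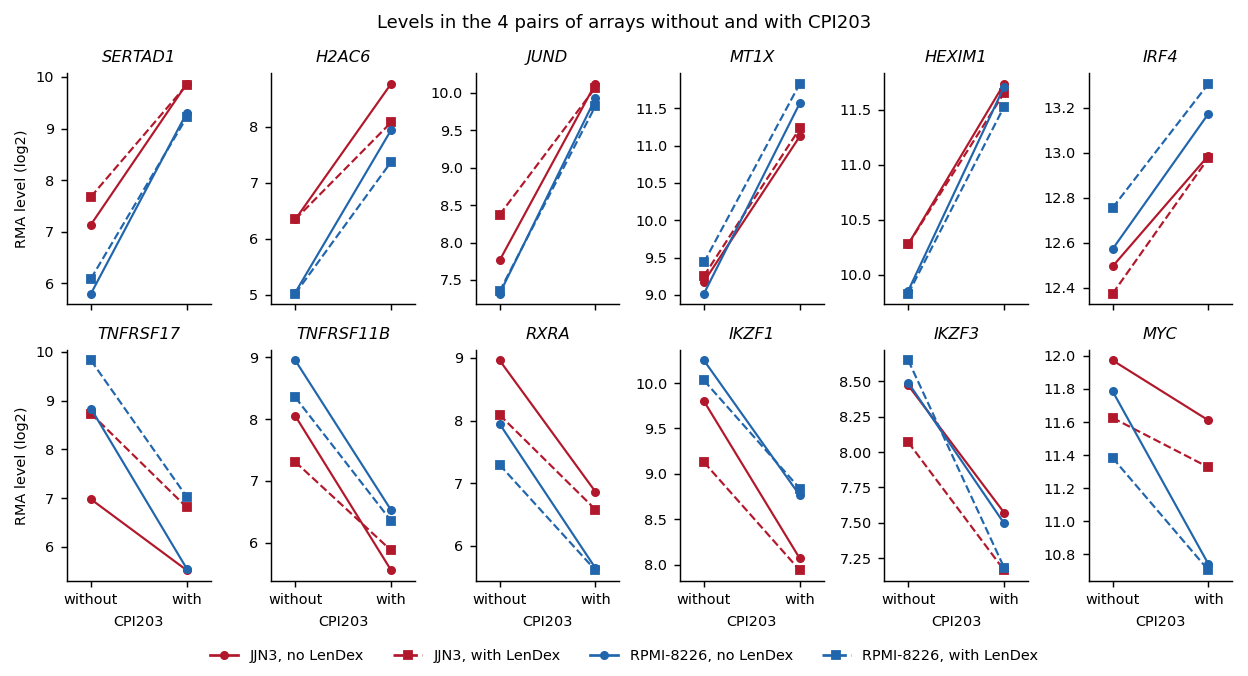
RMA log2 level (vertical axis, own scale per gene) of 12 genes on the JJN3 (red) and RPMI-8226 (blue) arrays without and with CPI203, each line joining 1 of the 4 pairs, solid without LenDex and dashed with it. SERTAD1, H2AC6, JUND, MT1X, HEXIM1 and IRF4 run upward in 4 of 4 pairs and the other 6 genes downward in 4 of 4, with MYC moving least among the falls (0.60 log2 units on average).

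Among the falls the largest was that of TNFRSF17, which encodes BCMA, a survival receptor of plasma cells and a target of myeloma therapies. It was at 6.98 and 8.73 on the JJN3 arrays without CPI203 and at 5.52 and 6.81 with it, and at 8.84 and 9.83 against 5.55 and 7.03 on the RPMI-8226 arrays. The arrays with LenDex were higher than their partners without it in each line, with or without CPI203, and only the RPMI-8226 Combo array with CPI203 lay above the lowest array without it. TNFRSF17 fell by 2.37 ± 0.29 log2 units (SE, 5.16-fold lower, adjusted p = 0.0042), by 1.69 in JJN3 and by 3.04 in RPMI-8226.

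TNFRSF11B encodes osteoprotegerin, the decoy receptor for the bone-resorbing ligand RANKL. It went from 8.05 and 7.31 to 5.55 and 5.88 in JJN3 and from 8.95 and 8.35 to 6.53 and 6.35 in RPMI-8226. No array with CPI203 reached the level of one without it, and the fall was 2.09 ± 0.18 (SE, 4.26-fold, adjusted p = 0.00182). RXRA, a nuclear receptor that partners the vitamin D, retinoid and thyroid hormone receptors, went from 8.96 and 8.09 to 6.86 and 6.58 in JJN3 and from 7.95 and 7.29 to 5.64 and 5.61 in RPMI-8226 (-1.90 ± 0.14, adjusted p = 0.00161). EDN1 (endothelin 1) was at 6.59 and 8.70 in JJN3 and 6.37 and 8.76 in RPMI-8226 without CPI203, higher with LenDex in both lines, and at 5.33 and 6.00 and at 5.12 and 6.61 with CPI203. Its fall was 1.84 ± 0.25 (SE, adjusted p = 0.00551). The other large falls, between 1.60 and 1.79 log2 units, were those of MLKL (the effector of necroptosis), FRMD4A, OXTR (the oxytocin receptor), CACNB2 (a calcium channel subunit), TLR10 (a Toll-like receptor of B cells), NRROS, ZHX2 (a transcriptional repressor) and RIPOR2. Each of these 24 largest changes kept its call when any 1 of the 4 pairs was left out.

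Transcripts that are used to follow BET inhibition were taken as a list, which was chosen with earlier results of these data known, so its counts are a description. Of 12 such genes tested, 10 rose and 1 fell, with a median change of 1.22 against 0.01 over all genes tested (10, 10, 8 and 8 rises with 1 pair left out). H2AC6 is a member and is counted again among the histone genes below. HEXIM1 encodes the inhibitor that holds P-TEFb inactive with 7SK RNA. It was at 10.28 on both JJN3 arrays without CPI203 and at 11.74 and 11.65 with it, and at 9.85 and 9.83 against 11.71 and 11.53 on the RPMI-8226 arrays. The groups did not overlap, and HEXIM1 rose by 1.60 ± 0.10 (SE, 3.03-fold, adjusted p = 0.00141). All 5 probe sets of HEXIM1 were called, with changes from 1.60 to 2.20. SERPINI1 rose by 1.94 ± 0.15, TXNIP, an inhibitor of thioredoxin, by 0.94 ± 0.11, and the tubulin gene TUBA1A by 0.92 ± 0.09 (SE, adjusted p = 0.00171, 0.00378 and 0.00228). The member that fell was ZMYND8, a reader of modified histones, which went from 10.34 and 10.44 to 8.84 and 8.87 in JJN3 and from 10.36 and 10.34 to 8.83 and 8.84 in RPMI-8226. Its 4 pairs lay between -1.56 and -1.50, with a fall of 1.52 ± 0.07 (SE, adjusted p = 0.00132).

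Genes of the elongation machinery itself also moved. Of 17 genes for P-TEFb, its 7SK complex, the super elongation complex and BET proteins, 7 rose and 2 fell (6, 4, 3 and 3 rises with 1 pair left out). Besides HEXIM1, these were BRD2 (0.73 ± 0.14) and BRD3 (0.30 ± 0.08), both targets of the inhibitor class, CDK9, the kinase of P-TEFb (0.42 ± 0.10), the scaffolds AFF4 (0.64 ± 0.11) and AFF1 (0.58 ± 0.08), and MEPCE, which caps 7SK RNA (0.40 ± 0.08, SE throughout). HEXIM2, the close relative of HEXIM1, fell by 0.93 ± 0.09 (adjusted p = 0.00234), from 8.03 and 7.94 to 7.24 and 7.01 in JJN3 and from 7.91 and 7.92 to 6.74 and 7.09 in RPMI-8226. The 2 HEXIM transcripts thus moved in opposite directions in 4 of 4 pairs. NELFA, a subunit of the negative elongation factor, fell by 0.55 ± 0.13, a call that was lost without any 1 of the 4 pairs (largest adjusted p = 0.0875).

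Replication-dependent histone genes lie in clusters and give short transcripts without a poly(A) tail in dividing cells, although polyadenylated forms are made as well. Of 50 tested, 21 rose and none fell, and 13, 13, 14 and 15 rose with 1 pair left out. The median change of the 50 was 0.30. By family, 8 of 15 H2B genes, 6 of 13 H2A genes, 4 of 9 H3 genes, 2 of 5 H1 genes and 1 of 8 H4 genes rose. Of 13 genes at a mean level of 6 or more without CPI203, 10 rose, and of 37 below that level, 11 rose.

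H2AC6 was at 6.34 on both JJN3 arrays without CPI203 and at 8.77 and 8.08 with it, and at 5.04 and 5.02 against 7.94 and 7.37 in RPMI-8226. All 4 arrays with the drug were above all 4 without it, with a rise of 2.36 ± 0.18 (SE, 5.12-fold, adjusted p = 0.00161). H3C4 rose by 1.99 ± 0.14 (adjusted p = 0.00157), from 7.37 and 7.73 to 9.82 and 9.28 in JJN3 and from 5.87 and 6.01 to 7.90 and 7.92 in RPMI-8226. H2BC21 rose by 1.90 ± 0.23 (adjusted p = 0.00393), with changes of 2.35 and 2.13 in JJN3 and of 2.16 and 0.96 in RPMI-8226. For H2BC21 the other 2 probe sets lay near 5 and changed by 0.10 and 0.06, without a call. Of the 50 probe sets used, 28 are designed against several transcripts, and 13 of those 28 were called against 8 of the 22 others. Near-identical histone genes may share signal on such probe sets, so a value may belong to a family rather than to 1 gene.

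**Figure D2:**
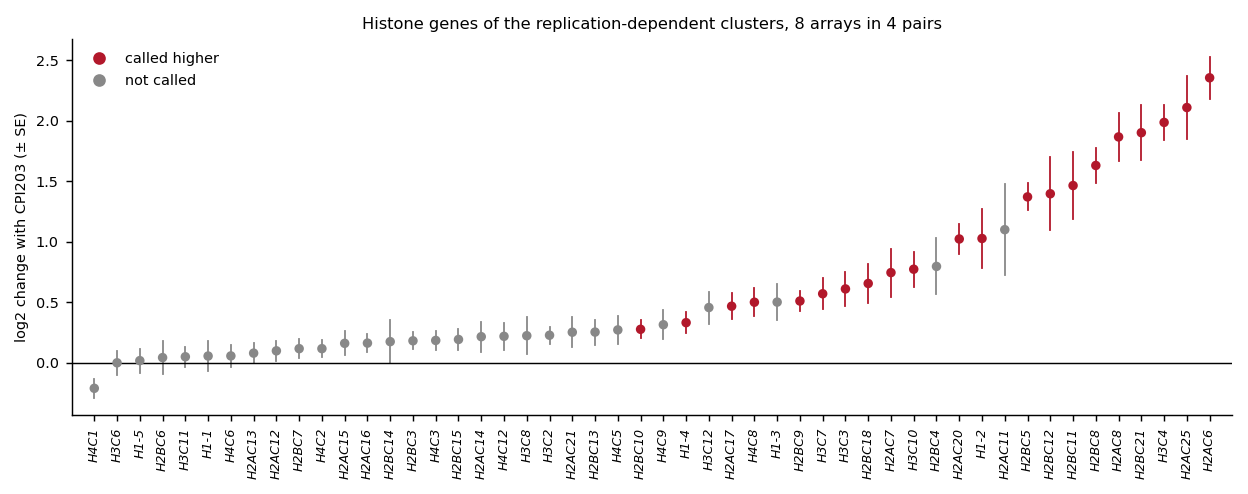
Log2 change with CPI203 (vertical axis, points with the moderated SE of the fit over 4 pairs) of the 50 tested histone genes of the replication-dependent clusters, ordered by change along the horizontal axis. The 21 called genes (red) reach from 0.28 for H2BC10 to 2.36 for H2AC6, and 29 (grey) were not called.

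Because the histone genes moved together, their promoters are shown. Histone H2A and H2B genes often stand back to back and share 1 promoter region, and an octamer is a known element of H2B promoters. RefSeq windows (GRCh38.p14) from 250 bases before to 50 bases after the transcript start are given for 3 of the largest rises, 5′ to 3′ on the strand of the gene. Capitals mark the octamer ATTTGCAT, the CCAAT box CCAAT and the TATA box TATAAA, each searched on both strands. H2AC6 is at chr6:26123922-26124221 on the plus strand, H2AC8 at chr6:26216671-26216970 on the plus strand and H2BC21 at chr1:149886633-149886932 on the minus strand.
H2AC6: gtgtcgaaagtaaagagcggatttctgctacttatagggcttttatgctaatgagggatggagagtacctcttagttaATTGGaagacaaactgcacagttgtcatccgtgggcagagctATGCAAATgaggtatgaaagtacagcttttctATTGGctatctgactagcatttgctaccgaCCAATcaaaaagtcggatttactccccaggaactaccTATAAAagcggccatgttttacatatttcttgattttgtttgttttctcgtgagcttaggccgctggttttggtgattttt
H2AC8: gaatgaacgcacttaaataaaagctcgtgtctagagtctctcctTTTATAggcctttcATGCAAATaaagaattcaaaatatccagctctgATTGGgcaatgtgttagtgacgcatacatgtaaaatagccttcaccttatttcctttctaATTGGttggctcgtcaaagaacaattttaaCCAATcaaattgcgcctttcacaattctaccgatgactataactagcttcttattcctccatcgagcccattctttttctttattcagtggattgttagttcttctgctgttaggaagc
H2BC21: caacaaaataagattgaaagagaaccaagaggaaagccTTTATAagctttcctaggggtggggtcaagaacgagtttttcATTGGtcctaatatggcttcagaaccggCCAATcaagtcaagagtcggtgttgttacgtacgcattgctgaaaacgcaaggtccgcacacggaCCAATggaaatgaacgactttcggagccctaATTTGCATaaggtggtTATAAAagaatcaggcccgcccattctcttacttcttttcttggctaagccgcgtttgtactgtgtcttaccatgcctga
Each of the 3 windows holds 1 octamer and 3 CCAAT boxes, with 1, 1 and 2 TATA boxes. Of all 35093 distinct promoter windows in the table, 1.77% hold an octamer, 34.6% a CCAAT box and 11.5% a TATA box. Windows of the 21 called histone genes held an octamer in 14 of 24 cases, and those of 24 histone genes that were tested and not called in 9 of 25. Divergent genes have overlapping windows, so 1 site can be counted for 2 genes and in both sets, and the windows are not independent. A CCAAT box was found in 23 of 24 and in 22 of 25 windows. These matches describe the letters in the windows and are not evidence of binding.

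The divergent partners of the first pair of windows differed in their values. The H2AC6 window shares 255 bases with that of H2BC4, and H2BC4 stood at 0.80 ± 0.23 (SE, adjusted p = 0.0587, higher in 4 of 4 pairs), short of a call. The H2AC8 window shares 268 bases with that of H2BC8. H2AC8 rose by 1.87 ± 0.20 (adjusted p = 0.00299) and H2BC8 by 1.63 ± 0.14 (SE, adjusted p = 0.00189). H2AC8 went from 7.48 and 7.30 to 8.81 and 8.79 in JJN3 and from 5.27 and 5.66 to 7.73 and 7.87 in RPMI-8226.

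MYC, the transcription factor whose loss is the best known effect of BET inhibitors in myeloma, changed little in size. It was at 11.97 and 11.62 on the JJN3 arrays without CPI203 and at 11.61 and 11.33 with it, and at 11.79 and 11.38 against 10.74 and 10.70 on the RPMI-8226 arrays. The groups overlapped, since the JJN3 arrays with CPI203 were near the RPMI-8226 LenDex array. MYC fell by 0.60 ± 0.13 (SE, 1.51-fold lower, adjusted p = 0.0271), and the call was lost without the JJN3 pair lacking LenDex and without either RPMI-8226 pair (largest adjusted p = 0.0846). The means were -0.33 in JJN3 and -0.86 in RPMI-8226, and this difference between lines was not called (adjusted p = 0.652).

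In the MYC network, which holds partners that compete for its dimerisation partner MAX, 2 of 12 genes rose and 1, MYC, fell. MXD1, an antagonist of MYC, rose by 1.31 ± 0.08 (SE, 2.47-fold, adjusted p = 0.00141), from 5.81 and 6.08 to 7.26 and 7.37 in JJN3 and from 4.97 and 5.09 to 6.20 and 6.34 in RPMI-8226. MXD3 rose by 0.75 ± 0.19 (adjusted p = 0.0365). Genes for ribosome biogenesis and RNA polymerase I, classic MYC targets, fell in 18 of 39 cases and rose in none, with a median of -0.34 (12, 10, 10 and 13 falls with 1 pair left out). RRS1, an assembly factor of the large ribosomal subunit, went from 10.72 and 10.23 to 9.84 and 9.04 in JJN3 and from 10.89 and 10.22 to 9.80 and 9.11 in RPMI-8226. Its fall was 1.07 ± 0.08 (SE, adjusted p = 0.00168), and no array with CPI203 reached the level of one without it. POLR1B, a subunit of RNA polymerase I, fell by 0.78 ± 0.08 and DKC1, the pseudouridine synthase dyskerin, by 0.65 ± 0.08 (SE, adjusted p = 0.00246 and 0.00388).

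Of 25 ribosomal protein genes none was called, and all changes lay between -0.08 and 0.04; most of these transcripts are near the top of the scale, where arrays compress differences. The E-box CACGTG, the DNA motif of MYC and MAX, was found in 8 of 18 promoter windows of the ribosome biogenesis genes that fell, in 4 of 21 windows of those tested and not called, and in 7.26% of all windows. Nucleotide and one-carbon genes were mixed, with 4 falls (UMPS, CTPS1, MTHFD1 and CAD, between -0.51 and -0.39) and 2 rises (RRM2 at 0.51 and PPAT at 0.29) among 19. The falls numbered 3, 2, 2 and 4 with 1 pair left out. Among 13 polyamine genes SAT1, which breaks polyamines down, rose by 1.06 ± 0.22, OAZ2 by 0.57 ± 0.09 and ODC1 by 0.34 ± 0.07, while SRM fell by 0.34 ± 0.09 (SE, adjusted p = 0.0217, 0.00834, 0.0214 and 0.0459). With 1 pair left out, 2, 2, 1 and 1 polyamine genes rose and none fell.

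Ikaros family transcripts IKZF1, IKZF2 and IKZF3 fell. IKZF1 was at 9.80 and 9.13 on the JJN3 arrays without CPI203 and at 8.07 and 7.94 with it, and at 10.25 and 10.03 against 8.76 and 8.84 on the RPMI-8226 arrays. The groups did not overlap, and IKZF1 fell by 1.40 ± 0.11 (SE, 2.64-fold lower, adjusted p = 0.00174). IKZF3 (Aiolos) fell by 1.07 ± 0.11 (adjusted p = 0.003), from 8.47 and 8.07 to 7.57 and 7.17 in JJN3 and from 8.49 and 8.65 to 7.50 and 7.18 in RPMI-8226, also without overlap. IKZF2 (Helios) fell by 0.92 ± 0.08 (SE, adjusted p = 0.00205). For IKZF1 the pairs with LenDex changed by -1.19 in both lines and those without by -1.73 and -1.49, and this difference was not called (adjusted p = 0.849). Transcripts do not measure the proteins, which lenalidomide degrades.

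Of the 14 genes for Ikaros proteins, cereblon, its ligase and other substrates, 5 fell and 1 rose. ZNF692, another zinc finger protein that lenalidomide-bound cereblon can target, fell by 1.31 ± 0.16, and CUL4A, the scaffold of the ligase, by 0.37. CRBN (cereblon) was the rise, at 0.54 ± 0.12 (SE, adjusted p = 0.0276), with changes of 0.90 and 0.18 in JJN3 and 0.63 and 0.47 in RPMI-8226. The call on CRBN was lost without the JJN3 pair lacking LenDex and without either RPMI-8226 pair (largest adjusted p = 0.104).

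IRF4, the factor on which myeloma cells depend, did not fall. It was at 12.50 and 12.38 without CPI203 and 12.99 and 12.98 with it in JJN3, and at 12.57 and 12.76 against 13.17 and 13.31 in RPMI-8226. All 4 arrays with CPI203 were higher than all 4 without it, and IRF4 rose by 0.56 ± 0.07 (SE, 1.48-fold, adjusted p = 0.00447). It was the 1 riser among 18 B cell and plasma cell transcription factors, of which 5 fell (2, 2, 2 and 3 with 1 pair left out). EBF1, a founder of B cell identity, went from 9.53 and 10.29 to 8.61 and 9.30 in JJN3 and from 9.44 and 10.06 to 8.56 and 9.11 in RPMI-8226. Its groups did not overlap, and EBF1 fell by 0.93 ± 0.07 (SE, adjusted p = 0.00161). MEF2C fell by 0.79 ± 0.09, IRF8 by 0.43 ± 0.10, and XBP1, the secretory factor of plasma cells, by 0.30 ± 0.07 (SE, adjusted p = 0.00378, 0.0307 and 0.0385). PRDM1 was low on all 8 arrays and fell by 0.57 ± 0.15 (SE, adjusted p = 0.0481). Its largest fall, from 5.97 to 4.84, was in the JJN3 pair that holds the control array, and the call was lost without that pair.

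Parts of B cell receptor signalling fell with these factors. Of 21 genes, 7 fell and 2 rose, with a median of -0.09, and 5, 7, 4 and 5 fell with 1 pair left out. CD79B, a signalling chain of the receptor, went from 7.50 and 7.56 to 6.80 and 7.11 in JJN3 and from 7.68 and 7.53 to 6.77 and 6.55 in RPMI-8226, without overlap (-0.76 ± 0.11, adjusted p = 0.00584). The kinase gene SYK fell by 0.67 ± 0.10, the phosphatase genes PTPN6 and INPP5D by 0.63 ± 0.10 and 0.57 ± 0.08, the inhibitory Fc receptor gene FCGR2B by 1.06 ± 0.20 and the adaptor gene BLNK by 0.54 ± 0.11 (SE). The rises were CD81 (0.37 ± 0.07) and BCL10 (0.33 ± 0.08). CD79A, the partner chain, stood at -0.03, and of 14 B cell surface genes CD79B alone was called. Among 16 plasma cell genes TNFRSF17, SLAMF7, XBP1 and PRDM1 fell and IRF4 rose, with 1, 1, 1 and 3 falls when 1 pair was left out. SLAMF7, the target of elotuzumab, fell by 0.59 ± 0.12 (SE, adjusted p = 0.0185), a call lost without either JJN3 pair and without the RPMI-8226 pair lacking LenDex.

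Regulators of the MHC class II genes, which present antigen to helper T cells, fell while the class II genes were not called. CIITA, their master coactivator, was at 5.53 and 5.69 in JJN3 without CPI203, near the bottom of the scale, and at 5.16 and 5.19 with it. In RPMI-8226 it was at 7.42 and 7.13 without CPI203 and at 5.00 and 5.36 with it. CIITA fell by 1.27 ± 0.34 (SE, adjusted p = 0.0479), by 0.44 in JJN3 and by 2.10 in RPMI-8226, and the call was lost without any 1 of the 4 pairs (largest adjusted p = 0.143). RFX5 and RFXAP, which bind class II promoters, fell by 0.77 ± 0.07 and 0.75 ± 0.13 (SE, adjusted p = 0.00218 and 0.0105). HLA-DRA stood at -0.10 and CD74 at 0.04.

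Immediate early and AP-1 genes, which cells switch on within minutes of a stimulus, were called often. Of 27 tested, 15 rose and 1 fell, with a median of 0.62 (14, 15, 13 and 13 rises with 1 pair left out). ZFP36, which destabilises cytokine messages, went from 9.42 and 9.99 to 11.21 and 11.48 in JJN3 and from 8.57 and 9.27 to 10.61 and 10.78 in RPMI-8226, without overlap (1.71 ± 0.11, adjusted p = 0.00148). JUN rose by 1.09 ± 0.14, JUNB by 1.21 ± 0.17, FOS by 1.30 ± 0.18 and EGR1 by 0.94 ± 0.09 (SE, adjusted p = 0.00508, 0.00642, 0.00557 and 0.00257). ZFP36L1, a relative of ZFP36, fell by 0.47 ± 0.13. FOSB, FOSL1, FOSL2 and KLF4 stood between 0.09 and 0.15 and were not called.

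Of 21 genes of the unfolded protein and integrated stress responses, 12 rose and 2 fell, with a median of 0.44 (8, 7, 5 and 4 rises with 1 pair left out). ATF3, a stress-induced transcription factor counted in both this group and the former, went from 7.92 on both JJN3 arrays to 9.61 and 9.41 and from 8.31 and 8.25 to 10.03 and 9.84 in RPMI-8226, without overlap. It rose by 1.62 ± 0.08 (SE, 3.08-fold, adjusted p = 0.00132). PPP1R15A, which returns translation after stress, rose by 1.19 ± 0.09, HERPUD1, a degradation factor of the endoplasmic reticulum, by 0.71 ± 0.08, and DDIT3 (CHOP) by 0.66 ± 0.12 (SE, adjusted p = 0.00161, 0.00389 and 0.014). ATF4 stood at 0.03, and TRIB3, a target of ATF4 and CHOP, fell by 0.47 ± 0.07 (adjusted p = 0.00829).

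The heat shock list had 5 rises and no fall among 14 genes, a count unchanged when any 1 pair was left out. HSPA1B rose by 1.18 ± 0.12, HSPA1A by 1.21 ± 0.15, DNAJB1 by 1.01 ± 0.07, DNAJB4 by 1.44 ± 0.19 and BAG3 by 0.82 ± 0.09 (SE, adjusted p from 0.00154 to 0.00493). HSPA1A and HSPA1B are near-identical genes whose signals cannot be separated with certainty. DNAJB1, a cochaperone, was at 10.25 and 10.10 in JJN3 and 9.85 and 9.34 in RPMI-8226 without CPI203 and at 11.28 and 11.14 and at 10.79 and 10.37 with it. No array overlapped between the groups. The HSP90 genes HSP90AA1 and HSP90AB1 stood at 0.18 and -0.05.

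Metallothioneins bind zinc and copper and are induced through metal response elements. Of 9 genes of this list tested, 3 rose and none fell. MT1X was at 9.18 and 9.25 on the JJN3 arrays without CPI203 and at 11.12 and 11.23 with it, and at 9.02 and 9.44 against 11.57 and 11.83 in RPMI-8226. The groups lay at least 1 log2 unit apart, and MT1X rose by 2.22 ± 0.12 (SE, 4.65-fold, adjusted p = 0.00141). SLC30A1, the zinc exporter that shares this control, rose by 1.1 ± 0.10 and MT2A by 0.44 ± 0.07 (SE, adjusted p = 0.00204 and 0.0104), and MT1E and MT1F stood at 0.04 and 0.12. MT1 probe sets can pick up signal of near-identical family members. The MT1X promoter window, chr16:56682220-56682519 on the plus strand, is shown with the metal response element core TGCNCNC in capitals (both strands).
MT1X: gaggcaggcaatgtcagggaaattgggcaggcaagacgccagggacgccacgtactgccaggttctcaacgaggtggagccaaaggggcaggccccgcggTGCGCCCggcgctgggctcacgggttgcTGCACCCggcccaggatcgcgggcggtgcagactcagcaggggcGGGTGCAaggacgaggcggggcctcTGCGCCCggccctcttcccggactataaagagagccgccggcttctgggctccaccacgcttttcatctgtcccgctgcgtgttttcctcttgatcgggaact
It holds 4 such cores. The core is short, and 55.9% of all promoter windows hold at least 1.

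Of the antioxidant genes under NRF2, GCLC, which makes glutathione, rose by 0.93 ± 0.08 and SRXN1 by 0.40 ± 0.11, while KEAP1, the inhibitor of NRF2, fell by 0.69 ± 0.07 and SLC7A11 by 0.40 ± 0.10 (SE, adjusted p = 0.00189, 0.0482, 0.00265 and 0.0422), out of 13. These shares, 15.4% higher and 15.4% lower, are not far from the 9.63% and 9.08% over all genes. With 1 pair left out, 1, 2, 1 and 1 of the 13 rose and 2, 1, 1 and 1 fell. KEAP1 moved almost alike in the 4 pairs, between -0.72 and -0.62. Genes of cholesterol and fatty acid synthesis rose in 9 of 17 cases, and none fell (6, 8, 5 and 5 rises with 1 pair left out). Among them IDI1 rose by 0.88 ± 0.09, HMGCS1 by 0.69 ± 0.09, MVD by 0.66 ± 0.09 and FASN, the fatty acid synthase, by 0.94 ± 0.19 (SE, adjusted p = 0.00278, 0.00494, 0.00508 and 0.0199).

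**Figure D3:**
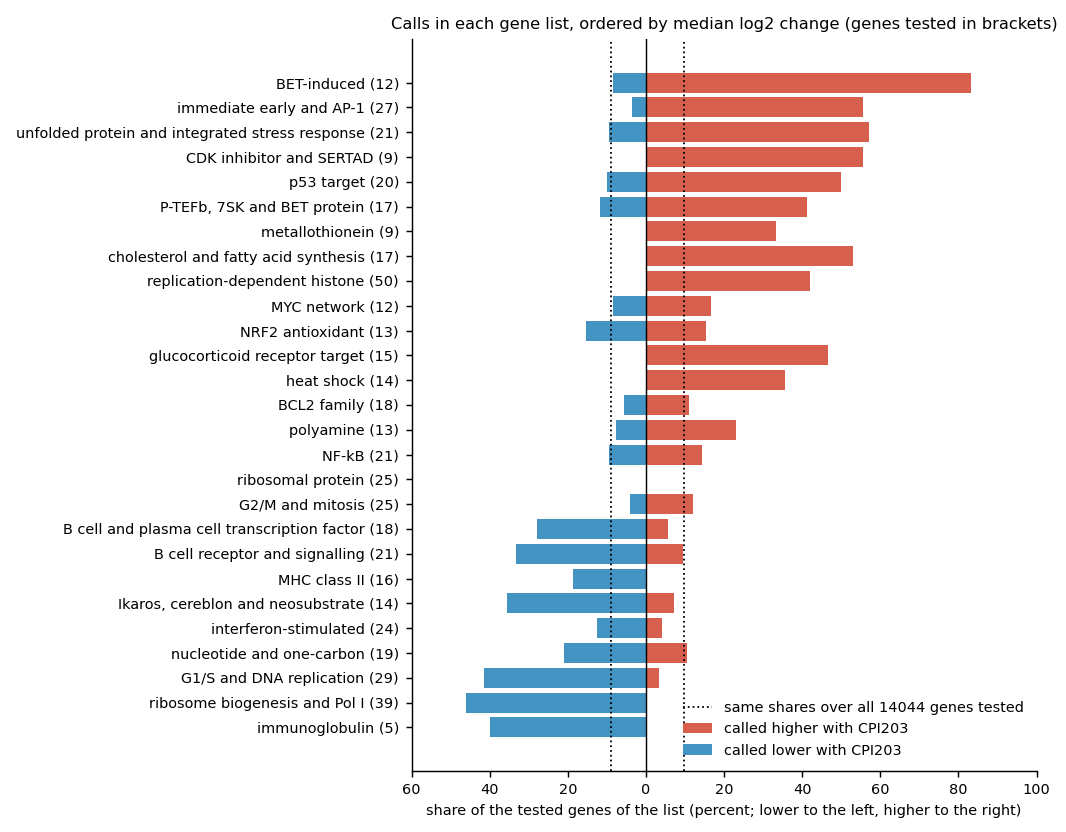
Share of the tested genes of each list called higher (red, right) or lower (blue, left) with CPI203, in percent, with lists ordered by their median log2 change. Dotted lines mark the shares over all 14044 genes, 9.63% higher and 9.08% lower; the BET-induced list reaches 83.3% higher and the ribosome biogenesis list 46.2% lower.

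Of 29 genes of the G1/S transition and DNA replication, 12 fell and 1, the cyclin gene CCNE1, rose, with a median of -0.28 (5, 3, 5 and 7 falls with 1 pair left out). E2F2, a transcription factor of S phase entry, went from 7.45 and 7.86 to 6.78 and 7.11 in JJN3 and from 8.52 and 8.80 to 7.69 and 7.88 in RPMI-8226. The groups overlapped, with RPMI-8226 higher throughout, and E2F2 fell by 0.79 ± 0.08 (SE, adjusted p = 0.00244). MCM2, of the replicative helicase, fell by 0.63 ± 0.08 and GINS1 by 0.57 ± 0.07 (adjusted p = 0.00447 and 0.00441). Of 25 genes of G2/M and mitosis, 3 rose (CENPE, CDC20 and BUB1, between 0.32 and 0.36) and BUB1B fell by 0.49 ± 0.08. These shares, 12% and 4%, are near or below those over all genes, and with 1 pair left out 1, 0, 0 and 0 of the 25 rose.

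Of 9 genes for cyclin-dependent kinase inhibitors and SERTAD proteins, 5 rose and none fell (3 rises without any 1 of the 4 pairs). SERTAD1, already named as the largest rise, is 1 of the 5. CDKN1A (p21) was at 10.59 and 10.90 in JJN3 and 10.22 and 10.93 in RPMI-8226 without CPI203, and at 11.41 and 11.64 and at 11.44 and 11.69 with it. It rose by 0.88 ± 0.10 (SE, 1.84-fold, adjusted p = 0.00373) with no overlap. CDKN2D (p19) rose by 0.78 ± 0.10 and CDKN1B (p27) by 0.37 ± 0.08. CDKN1A is also a p53 target, and of 20 such genes 10 rose and 2 fell, with a median of 0.36 (8, 9, 8 and 8 rises with 1 pair left out). GADD45B rose by 1.40 ± 0.11, TNFRSF10B, a death receptor for TRAIL, by 0.60 ± 0.07 and MDM2, the inhibitor of p53, by 0.58 ± 0.09, while FAS fell by 0.52 ± 0.07 and AEN by 0.65 ± 0.15 (SE, adjusted p = 0.00177, 0.0042, 0.00961, 0.00637 and 0.0308).

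Of 18 genes of the BCL2 family, which sets survival, 2 rose and 1 fell, shares near those over all genes. BCL2L1, which encodes BCL-XL, went from 8.87 and 8.52 to 7.81 and 7.63 in JJN3 and from 8.64 and 8.32 to 7.72 and 7.47 in RPMI-8226, without overlap. It fell by 0.93 ± 0.07 (SE, 1.91-fold lower, adjusted p = 0.00174). MCL1, the relative on which most myeloma cells depend, went from 11.21 and 11.29 to 11.86 and 11.76 in JJN3 and from 11.18 and 11.13 to 11.84 and 11.67 in RPMI-8226, without overlap, and rose by 0.58 ± 0.07 (SE, 1.49-fold, adjusted p = 0.00487). The other rise was BCL2L12 at 0.49 ± 0.08 (SE). BCL2 stood at 0.31 ± 0.09 (adjusted p = 0.0604) and BCL2L11, the killer BIM, at 0.16 ± 0.11 (adjusted p = 0.359).

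Of 21 NF-kB genes 3 rose and 2 fell, shares of 14.3% and 9.52% that are near those over all genes. TNF, the inflammatory cytokine, rose by 1.30 ± 0.17 and NFKBIA, the inhibitor of NF-kB, by 0.67 ± 0.07, while LTA, the neighbour of TNF and also a cytokine, fell by 0.54 ± 0.08 (SE, adjusted p = 0.00459, 0.00287 and 0.00656). IRF7 was the 1 riser among 24 interferon-stimulated genes, of which MX1, MX2 and GBP1 fell by 0.71, 0.56 and 0.60. Glucocorticoid receptor targets, which dexamethasone induces and which are balanced between the groups here, rose in 7 of 15 cases and fell in none (5, 5, 3 and 3 rises with 1 pair left out). These included SESN1 at 1.15 ± 0.17, TSC22D3 (GILZ) at 0.42 ± 0.08 and PER1 at 1.07 ± 0.21 (SE, adjusted p = 0.00767, 0.0165 and 0.0184), and FKBP5 stood at -0.03. Of the panel, CCND2, CCND3, BCL6, POU2AF1 and CXCR4 stood at -0.33, 0.25, -0.11, -0.29 and -0.23 and were not called, and CCR2 was too low to be tested.

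Whether the CPI203 effect differed between JJN3 and RPMI-8226 was tested directly. No gene was called (0% of 14044), while 1037 had an unadjusted p under 0.05 and the smallest adjusted p was 0.0645, in a fit with 2 residual degrees of freedom. A variance trend with robust moderation called 14 genes, the fit with no level filter 5 and the mean over probe sets 4. Across all genes the mean changes in the 2 lines had the same sign in 69.7% of cases.

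Among the 5 genes with the smallest p-values for such a difference were 3 transcription factors of red blood cell development, LMO2, KLF1 and NFE2. LMO2, a bridging factor in these cells, was at 8.68 and 8.53 on the JJN3 arrays without CPI203 and at 5.36 and 5.38 with it, and between 4.55 and 4.86 on all 4 RPMI-8226 arrays. Its change was -3.24 in JJN3 and -0.12 in RPMI-8226 (difference 3.11 ± 0.19, SE, adjusted p = 0.0645). KLF1, the activator of globin genes, was at 8.34 and 8.32 against 5.99 and 5.61 in JJN3 and between 4.51 and 4.74 in RPMI-8226 (adjusted p = 0.0725). TAL1, GATA1 and NFE2, which act with them and were chosen after their values were seen, had JJN3 means of -1.87, -1.30 and -1.85. TAL1 went from 7.80 and 7.79 to 6.12 and 5.73, GATA1 from 7.47 and 7.38 to 6.08 and 6.16 and NFE2 from 6.92 and 7.43 to 5.23 and 5.43. On the RPMI-8226 arrays these 3 genes lay between 4.43 and 5.51. LMO2 and KLF1 were under the level minimum of 5 on all 4 RPMI-8226 arrays and passed the filter through JJN3, so they could not fall in RPMI-8226, and these values do not show a different response of the lines.

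HBG1, a fetal globin gene, was also chosen after its values were seen. It was between 13.19 and 13.32 on all 4 JJN3 arrays, at 6.77 and 6.91 on the RPMI-8226 arrays without CPI203 and at 8.43 and 8.53 on those with it (difference between lines 1.73 ± 0.14, SE, adjusted p = 0.0725). HBG1 was also high in ARP1, at 12.26 to 12.40. HBB, ALAS2 and AHSP lay between 4.65 and 5.82 on the 8 arrays. The summed level of the 8 erythroid markers measured was 51.6 to 56.6 on the JJN3 arrays and 42.3 to 44.4 on the RPMI-8226 arrays, and none of 7 tested was called over the 4 pairs. Of 6 epithelial markers, EPCAM and KRT19 were lower with CPI203 in both JJN3 pairs. EPCAM was at 5.91 and 6.39 against 6.63 and 7.17 and KRT19 at 5.682 and 5.596 against 6.79 and 6.32. CDH1 and CLDN4 were higher in both JJN3 pairs, and KRT8 and KRT18 were higher in the pair without LenDex and slightly lower in the other. The median change of the 6 was 0.163 in JJN3. In a fit of the JJN3 arrays only, 2 of the 6 were called lower and 0 higher. The same fit called 2 of the 7 erythroid markers lower and 0 higher, and 374 of all 14044 genes lower and 386 higher. The part of these markers in the values above was not tested. RFESD was at 7.88 and 7.65 without CPI203 and at 6.26 and 6.21 with it in JJN3, and at 4.75 and 4.88 against 5.33 and 5.38 in RPMI-8226 (difference 2.07 ± 0.16, SE, adjusted p = 0.0725). PSD3 had the reverse form, at 7.29 and 7.34 against 5.58 and 5.99 in RPMI-8226 and between 4.63 and 4.90 in JJN3, where it could not fall (adjusted p = 0.337). TUBB3, a neuronal tubulin gene, changed by 1.38 in JJN3 and by -0.07 in RPMI-8226, a difference with adjusted p = 0.337. ADARB1, an RNA editing enzyme, stood at 2.14 in JJN3 and at 0.32 in RPMI-8226 without a call for the difference (adjusted p = 0.0865).

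**Figure D4:**
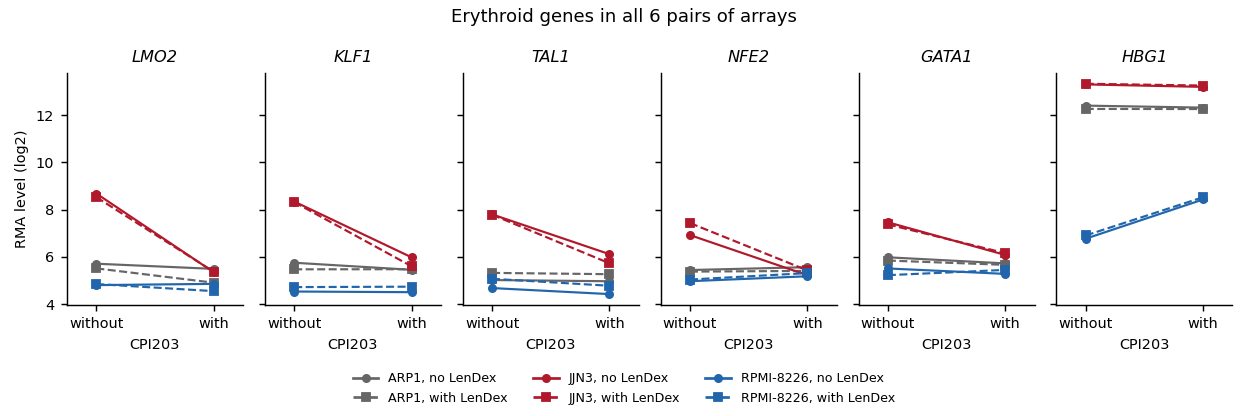
RMA log2 level (vertical axis, shared) of LMO2, KLF1, TAL1, NFE2, GATA1 and HBG1 without and with CPI203, each line joining 1 of 6 pairs of arrays in ARP1 (grey), JJN3 (red) and RPMI-8226 (blue). The 5 transcription factors are above 6.9 only on the JJN3 arrays without CPI203, and HBG1 climbs with CPI203 in the RPMI-8226 pairs from 6.77 and 6.91 to 8.43 and 8.53.

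Whether LenDex altered the CPI203 effect was tested over the same 8 arrays. No gene was called (0% of 14044), with 813 at an unadjusted p under 0.05 and a smallest adjusted p of 0.147, while a variance trend with robust moderation called 16. The smallest p belonged to CALD1, which encodes the actin-binding caldesmon. It was at 5.04 and 4.89 on the control arrays of JJN3 and RPMI-8226, at 7.70 and 7.74 with LenDex, at 4.84 and 4.92 with CPI203 and at 5.21 and 5.24 with all 3 drugs. The level was thus high on the 2 LenDex arrays alone. ADAMTS9, a secreted protease, had the same form, at 7.05 and 6.59 with LenDex and between 5.06 and 5.65 otherwise (adjusted p = 0.356). Without LenDex both genes lay near the bottom of the scale and had little or no room to fall with CPI203. Their values therefore do not show that LenDex altered the response to CPI203. TIPARP, an ADP-ribosyltransferase, changed with CPI203 by 2.04 and 1.95 without LenDex and by 0.37 and 0.48 with it, where it already stood at 11.20 and 10.05.

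The CPI203 effect was smaller on the ARP1 arrays, which have 2 such pairs. Among the 2627 called genes the median size of the change was 0.51 over the 4 pairs and 0.14 in ARP1. The change was smaller in ARP1 for 96.7% of them, and 74.3% had the same sign there; the genes were chosen on the 8 arrays, so this is a description. The test of the difference over 12 arrays called 123 of 14044 genes (0.876%), 90 with a change above that in ARP1 and 33 below it. The share above was 73.2%, and it was 58.6% after cyclic loess and 60.9% after quantile normalization. Leaving out 1 pair gave between 0 and 61 calls, with 0 without the RPMI-8226 pair lacking LenDex and 0 without either ARP1 pair.

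The named genes with a called difference from ARP1 included 12 of the 24 largest changes and 14 others. Genes were named partly through this test and partly for large changes on the 8 arrays, so these counts are a description. SERTAD1 stood at 2.45 in JJN3, at 3.31 in RPMI-8226 and at 0.51 in ARP1 (difference 2.37 ± 0.33, adjusted p = 0.0315). HEXIM1 stood at 0.23 in ARP1 against 1.60 over the 8 arrays (difference 1.37 ± 0.16, adjusted p = 0.0209), and ZMYND8 at -0.18 against -1.52 (difference -1.34 ± 0.11, adjusted p = 0.0126). IKZF1 stood at -0.31 in ARP1, with a difference of -1.09 ± 0.18 (SE, adjusted p = 0.0488). TNFRSF11B, OXTR, TLR10, ANO3 and ARHGAP26 fell on the 8 arrays and stood between 0.18 and 0.32 in ARP1. These genes were low on the ARP1 arrays, at 4.62 to 5.16 for TNFRSF11B, 5.45 to 5.89 for OXTR, 4.931 to 5.304 for TLR10, 4.23 to 4.94 for ANO3 and 5.48 to 6.15 for ARHGAP26, as was ZHX2 at 5.77 to 5.84. They passed the level filter through the 8 arrays and had little or no room to fall in ARP1, so their called differences do not show a different response to CPI203. Of the 33 genes with a change below that in ARP1, 18 were under a level of 6 on both ARP1 arrays without CPI203. The share of all genes tested that lay under this level on those arrays was not counted. The 18 are therefore a description and do not show that low genes were more frequent among the 33 than among all genes. TNFRSF10B rose by 0.60 on the 8 arrays and stood at -0.45 in ARP1 (difference 1.05 ± 0.12, adjusted p = 0.0207).

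For some genes the ARP1 value lay nearer. H3C4 stood at 1.34 in ARP1 against 1.99 (adjusted p for the difference 0.23), H2BC21 at 1.46 against 1.90 (0.604), MT2A at 0.46 against 0.44 (0.967) and LTA at -0.50 against -0.54 (0.947). Other histone genes lay further apart without a call, with H2AC25 at 0.13 in ARP1 against 2.11 (0.0732), H2AC8 at 0.42 against 1.87 (0.0794) and H2AC6 at 1.04 against 2.36 (0.0804). The median of the 50 histone genes was 0.125 in ARP1, against 0.295 over the 8 arrays. MYC stood at -0.33 in ARP1 (adjusted p for the difference 0.596). CDKN1A went the opposite way there, at -1.10 against 0.88, without a call (adjusted p = 0.0536). A p that misses the threshold does not show that the lines responded alike. B cell markers, plasma cell markers and line move together between ARP1 and the other arrays, so they cannot be told apart here.

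**Figure D5:**
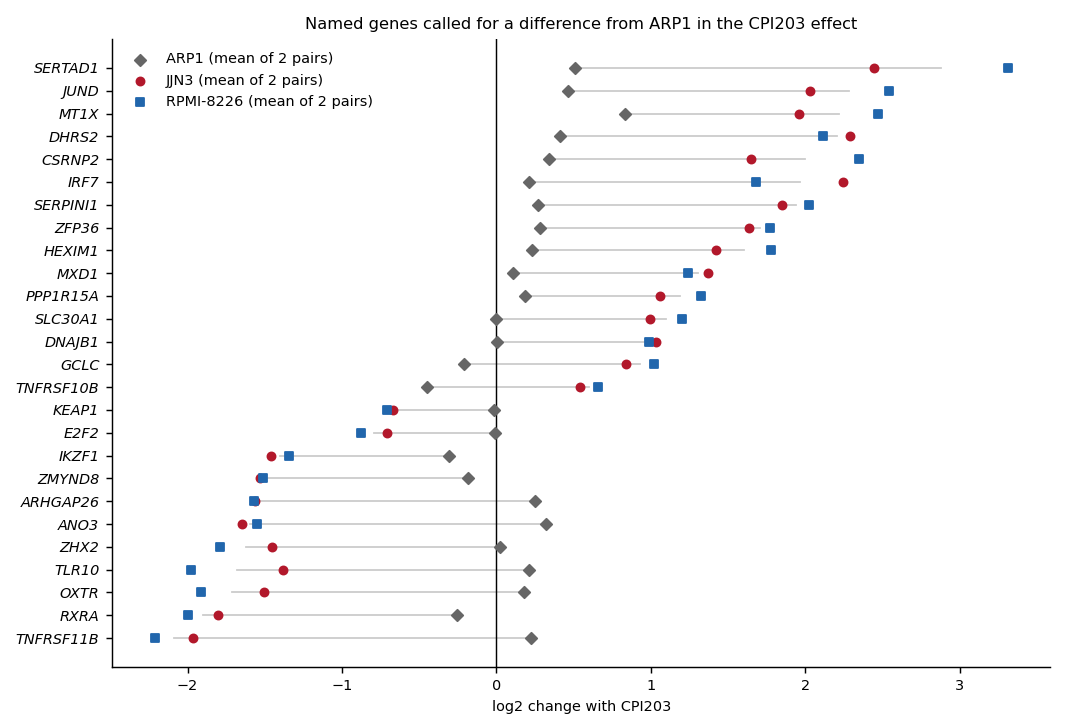
Mean log2 change with CPI203 (horizontal axis) in ARP1 (grey diamonds), JJN3 (red circles) and RPMI-8226 (blue squares), 2 pairs each, for the 26 named genes called for a difference from ARP1; grey lines run from the ARP1 mean to the mean of the 4 other pairs. ARP1 values lie between -0.45 and 0.83, while the other lines reach 3.31 for SERTAD1 and -2.21 for TNFRSF11B.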

How the data were processed

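RNA of 12 cultures was hybridised to 1 single-colour Affymetrix array each. The submitters' processing notes name RMA and Affymetrix Expression Console 1.1, and the range of the deposited values shows a log2 scale. Whether all arrays were normalised together is not given in the sources used here. RMA removes background, brings arrays to 1 distribution and summarises probes, which hides a shift of all transcripts. Each array had 49386 probe sets: 93 controls, 45253 with 1 gene symbol in the platform annotation, 1327 with several and 2713 with none. Symbols of 45172 were updated through RefSeq gene identifiers. Each gene took its single-symbol probe set with the highest mean, and genes at 5 or more on at least 3 of the 8 arrays were tested.

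The 8 arrays were fitted in limma 3.58.1 (R 4.3.3) with the pair as a block (3 residual degrees of freedom), empirical Bayes moderation and p-values that are two-sided and adjusted by Benjamini and Hochberg's method over the 14044 genes; calls are at 0.05. Pairs rest on the line and LenDex labels. Deviations of the 2 arrays of a pair from their group means correlated at 0.68 to 0.731 across genes. Those means span both lines, so the values carry the line difference and cannot bear on the pairing by LenDex. Line and LenDex differences used 2 and the ARP1 difference 4 residual degrees of freedom. The number of arrays limits precision. The fit was tested on simulated data. The 34 gene lists came from general knowledge, but the comparison, members and lists were chosen with earlier results of these data known. Named genes were the 12 largest rises and falls among called genes that moved alike in 4 pairs, a panel of 22 genes, up to 3 called members per direction of each list by p, and the leading genes of the difference tests (5 called genes per direction, or 3 by p where none was called); other list members illustrate their group. Alternatives covered filter, probe set choice, normalization, moderation, block and omitted arrays.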

Additional observations from a re-analysis of the deposited data

Results flagged for a closer look

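The effect of CPI203 on the 8 JJN3 and RPMI-8226 arrays was called different from that in ARP1 for 26 of 136 named genes (limma, adjusted p under the threshold for each). Over all 14044 genes tested, 123 were called (0.876%). Genes were named partly through this test and partly for large changes on the 8 arrays, so the 26 are a description. The changes above those in ARP1 were 2.37 log2 units for SERTAD1, 1.82 for JUND, 1.79 for DHRS2, 1.76 for IRF7, 1.67 for SERPINI1, 1.66 for CSRNP2, 1.42 for ZFP36, 1.38 for MT1X and 1.37 for HEXIM1. They were 1.2 for MXD1, 1.14 for GCLC, 1.1 for SLC30A1, 1.05 for TNFRSF10B, 1.01 for PPP1R15A and 1 for DNAJB1. The changes below those in ARP1 were -2.32 for TNFRSF11B, -1.92 for ANO3, -1.89 for both TLR10 and OXTR, -1.81 for ARHGAP26, -1.65 for both ZHX2 and RXRA, -1.34 for ZMYND8, -1.09 for IKZF1, -0.79 for E2F2 and -0.68 for KEAP1. TNFRSF11B, ANO3, TLR10, OXTR, ARHGAP26 and ZHX2 were low on the ARP1 arrays, between 4.23 (ANO3) and 6.15 (ARHGAP26), with little or no room to fall there, so their values do not show a different response. Each difference rests on 2 ARP1 pairs, and no difference of any gene was called without either of them.

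One sample stood far from its group. CDKN2D, a cyclin-dependent kinase inhibitor, was at 5.96 on the RPMI-8226 LenDex array, and the next of the 4 arrays without CPI203 was at 5.52. Chance alone sets a sample apart in this way in about 1 of 20 groups, and many genes were looked at.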

How the results depend on the processing

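The count of genes called for CPI203 (2627) ranged from 1313 to 1596 with 1 pair left out, was 760 with the JJN3 arrays only, 647 with the RPMI-8226 arrays only, 613 with no replicate block, 264 in a paired test without moderation and 4850 when probe sets were tested singly. It stayed within 1.5 times under the other alternatives, from 1959 (without the JJN3 control array alone, line, LenDex and CPI203 as additive terms, chosen after seeing the data) to 3491 (variance trend and robust moderation). In the paired fits, leaving out the JJN3 control array alone equals leaving out its pair. No line difference was called in the fit given above (0), against 5 with no level filter, 4 with the mean over probe sets and 14 with a variance trend and robust moderation, which also called 16 LenDex differences. Both stayed at 0 with 1 pair left out. The count for a difference from ARP1 (123) was 382 at a mean level of 6 or more, 341 with the mean over probe sets, 770 with a variance trend and robust moderation and 0 to 61 with 1 pair left out. BCL6 turned to 0.0222 with the mean over probe sets and CCND3 to -0.0605 with the JJN3 arrays only; neither was called. The cause of these shifts was not tested. With 3 residual degrees of freedom, and with array medians of 5.304 to 5.375 near the bottom of the scale, small changes and genes near a level of 5 are the least certain.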
